A study of Homo sapiens with 16 samples.

Results

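Expression of 10 genes that write or maintain DNA methylation and repressive histone methylation was followed in SUM225 cells during inhibition of HER2. The genes were DNMT1, DNMT3A, DNMT3B, UHRF1, HELLS, EZH2, SUZ12, EED, SUV39H1 and SUV39H2. They were taken as every probe of the array table that carries 1 of these symbols, which gave 18 of the 24526 probes and 10 of the 18631 symbols. SUM225 is a breast cancer cell line with amplified, over expressed HER2, and by the labels it was grown in Ham's F-12 medium with fetal bovine serum, insulin and hydrocortisone, whereas the study's methods give a serum-free medium with no insulin for this line. All cultures received 1 µM CP724,714, a small molecule inhibitor of the HER2 kinase, and sister cultures were taken at intervals of 3 h, the first at 0 h and the last at 45 h. Each culture gave RNA for 1 Illumina bead array, so that the 16 time points had 16 arrays and no replicate, and p-values measure deviations around a fitted course. Untreated cells over the same hours were not analysed here, and time in culture and the inhibitor therefore cannot be told apart.

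DNA methylation is copied onto the new strand after replication by DNMT1, which UHRF1 brings to hemimethylated sites, while DNMT3A and DNMT3B set new methylation. HELLS is a chromatin remodeller that helps methylation reach packed DNA. EZH2 is the catalytic subunit of Polycomb repressive complex 2 (PRC2), which methylates lysine 27 of histone H3 and needs SUZ12 and EED for its activity. SUV39H1 and SUV39H2 trimethylate lysine 9 of histone H3 in constitutive heterochromatin. Because chromatin marks are diluted at every round of replication, much of this machinery is made in dividing cells, and several of its genes are known targets of the E2F factors that drive S phase.

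Stretches of promoter sequence are shown for the genes in which a search found the letters of E2F sites. Each window ran over 250 bases before a RefSeq transcription start, without the bases after it, in assembly GRCh38.p14. All 10 genes had at least 1 window and together they had 19. Both strands were searched for the E2F words TTTGGCGC, TTTGCCGC, TTTCGCGC and TTTCCCGC, and no match overlapped a match to CCAAT. A match was found for 3 of the 10 genes (HELLS, UHRF1 and SUZ12), against 3.4% of 27305 genes with a window and 42.9% of 28 S phase genes. In the lines that follow, capitals mark the E2F words, read on either strand.
HELLS, chr10:94545692-94545787, plus strand: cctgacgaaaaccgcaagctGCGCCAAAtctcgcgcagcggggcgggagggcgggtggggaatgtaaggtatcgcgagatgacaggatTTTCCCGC
UHRF1, chr19:4909467-4909500, plus strand: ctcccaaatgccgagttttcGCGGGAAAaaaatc
UHRF1, chr19:4909964-4910011, plus strand: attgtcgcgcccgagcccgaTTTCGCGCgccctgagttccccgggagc
SUZ12, chr17:31936798-31936845, plus strand: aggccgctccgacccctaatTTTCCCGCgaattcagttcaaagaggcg

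HELLS carried 2 such words, 1 ending at the base before the start. The windows of DNMT1 and EZH2 held none of these letters, and the last 100 bases before their starts are given for comparison, with CCAAT words on either strand in capitals.
DNMT1, chr19:10194954-10195053, minus strand: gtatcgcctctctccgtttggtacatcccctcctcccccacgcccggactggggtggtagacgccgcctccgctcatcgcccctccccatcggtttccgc
EZH2, chr7:148884292-148884391, minus strand: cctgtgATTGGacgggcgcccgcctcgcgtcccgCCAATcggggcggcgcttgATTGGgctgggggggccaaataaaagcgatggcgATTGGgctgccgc

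The EZH2 stretch held 4 CCAAT words and that of DNMT1 none. A CCAAT word was found for 7 of the 10 genes and for 37.0% of all genes with a window. It was found for 57.1% of S phase genes and 85.7% of G2 and M phase genes. By window, the shares were 42.1% of the 19 and 32.0% of all 35116. These matches describe letters only, and no binding was measured.

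Across the 16 arrays the median signal lay between 242 and 384 and between 57.5% and 61.5% of probes were detected, which here means a detection p-value under 0.05 against the negative controls of the array. All 6 epithelial markers examined, ERBB2, EPCAM, KRT8, KRT18, KRT19 and CDH1, were detected on all 16 arrays. Of 11 markers of fibroblasts, blood and endothelium, 5 were detected on no array (COL3A1, DCN, LUM, PDGFRB and PTPRC) and CD68 and PECAM1 on all. VWF was detected on 13 arrays (log2 5.13 to 7.96), COL1A1 and COL1A2 on 5 each and CD3E on 1. The log2 of the summed linear signal lay between 17.46 and 17.57 for the first list. For the second list it lay between 10.01 and 10.57, with a mean of 10.15 on the arrays of 0 to 9 h and 10.29 on those of 36 to 45 h. The first sum was carried by ERBB2 and KRT19, whose log2 values of 16.02 to 16.13 lay at the top of the scale (16.14), while EPCAM lay between 8.38 and 9.49, KRT8 between 13.21 and 14.24 and KRT18 between 9.54 and 10.71. The part of these cells in the results was not tested.

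Of the 18 probes, 15 were detected on at least 3 arrays and were tested, and each of the 10 genes kept 1 or more. For each gene the brightest tested probe was used. By the F-test of a cubic course in limma, 7 of the 10 genes were time-dependent (adjusted p under 0.05), where 51.3% of all 16110 tested probes did. A falling linear trend was found for the same number of genes, 7 of 10, against 21.7% of all tested probes, and a rising trend for 0, against 26% (either direction, 47.7%). The falling genes were HELLS, EZH2, DNMT1, SUV39H1, UHRF1, DNMT3B and SUZ12. The median linear change over 45 h was -1.02 log2 units for the 10 genes and 0.05 for all tested probes. When each set of 4 neighbouring arrays was given a level of its own, only differences within 9 h remained. In that fit 0 of the 10 genes had a linear trend or were time-dependent in limma, and 0.9% of all tested probes had a linear trend. At an unadjusted p under 0.05, 2 genes had a linear trend and 4 were time-dependent. The shares of all tested probes at that cut were not counted, so these counts cannot be set against them. The linear change was then -2.27 ± 0.77 for HELLS, -0.81 ± 0.50 for DNMT1 and -0.58 ± 0.45 for SUV39H1. A culture with fewer cycling cells and one with less of the RNA in each cell cannot be told apart in these bulk samples.

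**Figure D1:**
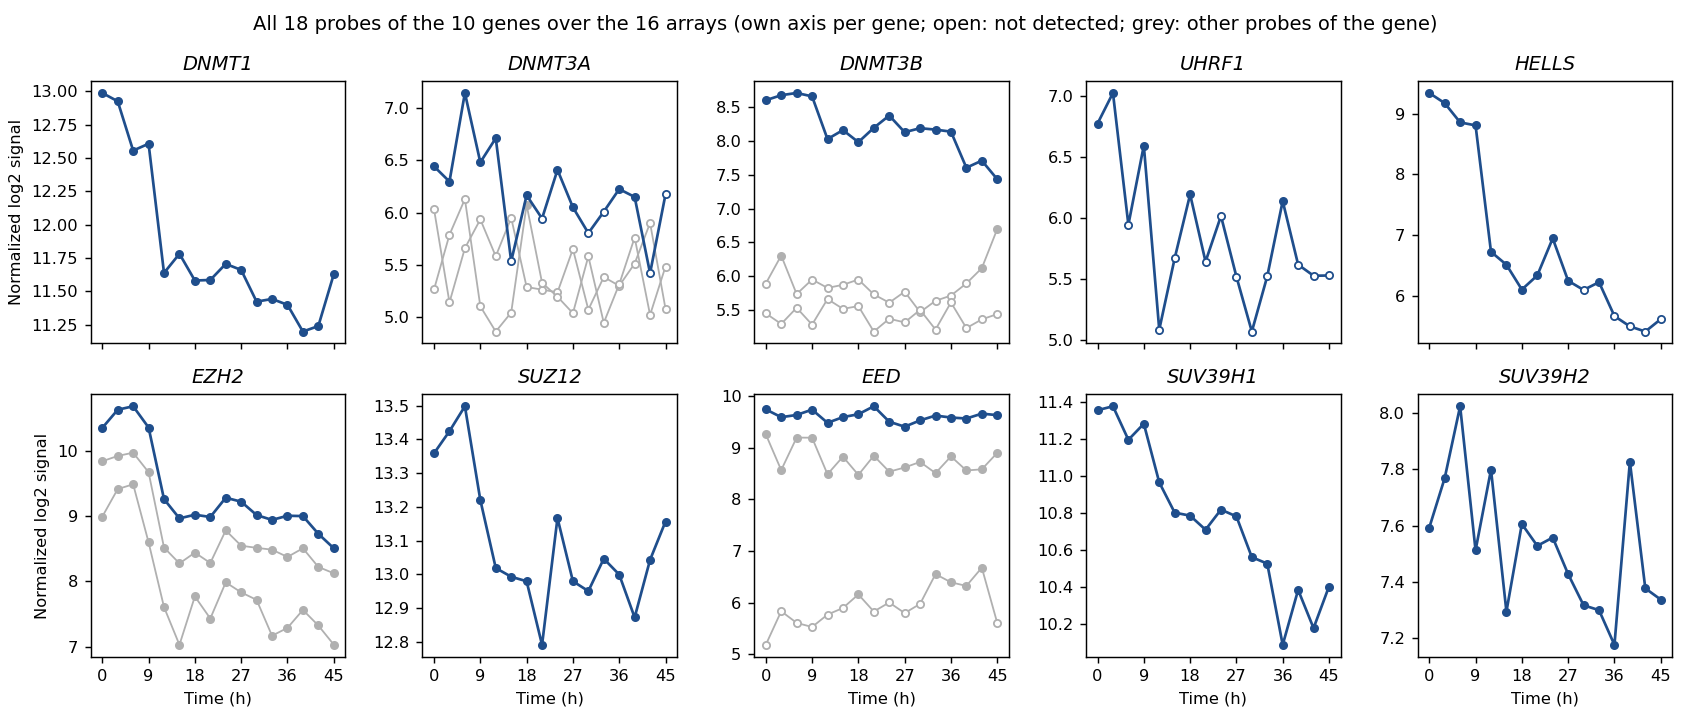
Normalized log2 signal (vertical axis, own scale for each gene) against hours in the inhibitor (horizontal axis) for all 18 probes. The brightest tested probe of each gene is blue, other probes are grey, and open circles mark arrays on which the probe was not detected. HELLS, EZH2 and DNMT1 stood high until 9 h and low from 12 h, while the brightest EED probe stayed between 9.41 and 9.81.

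HELLS fell most. Its single probe had log2 values of 9.34, 9.17, 8.86 and 8.81 at 0, 3, 6 and 9 h. On the following 4 arrays, 12 to 21 h, it had values of 6.72, 6.51, 6.10 and 6.33. From 24 to 33 h it was 6.95, 6.25, 6.10 and 6.22, and from 36 to 45 h it was 5.66, 5.50, 5.41 and 5.61. The first 4 arrays lay above all others, and the probe was not detected at 30 h or on any of the last 4 arrays. The linear change was -3.85 ± 0.36 (SE) log2 units over 45 h (limma, adjusted p = 4.12e-08). Ranked from the largest fall, it was number 12 of the 16110 tested probes. Without background correction the linear change was -1.90. Because the last arrays gave no detected signal, only a bound can be given for 45 h. On the background-corrected scale the level was at least 8.58-fold lower than at 0 h. The deposited signals were 763 at 0 h and 206 at 45 h.

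EZH2 was measured by 3 probes, each detected on all 16 arrays. The brightest had log2 values of 10.35, 10.63, 10.68 and 10.36 from 0 to 9 h, and 9.26, 8.96, 9.02 and 8.99 from 12 to 21 h. It then lay between 8.51 and 9.28, lowest at 45 h. No array after 9 h reached any of the first 4. The linear changes of the 3 probes were -1.85 ± 0.24, -1.63 ± 0.24 and -1.95 ± 0.32 (SE) log2 units (limma, largest adjusted p = 5.19e-05), and the probes correlated with each other at Pearson r of 0.96 to 0.99 over the 16 arrays, which they shared.

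The other PRC2 core genes moved less. SUZ12, a bright probe, lay between 13.22 and 13.50 from 0 to 9 h and between 12.79 and 13.17 on the 12 later arrays. Its linear change was -0.36 ± 0.10 (SE) log2 units (limma, adjusted p = 0.00476). Curvature passed the threshold too (adjusted p = 0.0415). EED, the subunit that binds trimethylated lysine 27, had log2 values between 9.41 and 9.81 with a linear change of -0.07 ± 0.11 (95% interval -0.30 to 0.15, adjusted p = 0.609). The second EED probe changed by -0.35 ± 0.18 (adjusted p = 0.126). The third EED probe, detected on 5 arrays, rose by 0.84 ± 0.25 (limma, adjusted p = 0.0102), so the probes of EED did not agree. The difference in linear change between the brightest probe and this one was -0.91 log2 units (95% interval -1.49 to -0.34).

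DNMT1, the maintenance methyltransferase, was measured by 1 probe, detected on all arrays. It had log2 values of 12.99, 12.93, 12.56 and 12.61 from 0 to 9 h and 11.64, 11.78, 11.58 and 11.59 from 12 to 21 h. From 24 h it lay between 11.20, at 39 h, and 11.71, at 24 h. All 12 later arrays were below the first 4. The linear change was -1.56 ± 0.15 (SE) log2 units (limma, adjusted p = 6.92e-08). The course was not straight (curvature, adjusted p = 0.00451).

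UHRF1, which targets DNMT1, was dim. Its single probe was detected at 0, 3, 9, 18 and 36 h, with log2 values of 6.78, 7.03, 6.60, 6.19 and 6.14. On the other 11 arrays it was not detected, including 6 h, with 5.95. Its linear change was -1.05 ± 0.33 (SE) log2 units (limma, adjusted p = 0.0125). At 45 h it was at least 1.45-fold lower than at 0 h. This call was lost without the 0 h array (adjusted p = 0.058) or without the 3 h array (adjusted p = 0.0735).

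The de novo enzymes differed in what could be measured. The brightest DNMT3B probe had log2 values of 8.60, 8.68, 8.71 and 8.66 from 0 to 9 h. It lay between 7.98 and 8.38 from 12 to 36 h and was 7.60, 7.71 and 7.43 at 39, 42 and 45 h. Its linear change was -0.998 ± 0.16 (SE) log2 units (limma, adjusted p = 4.11e-05). A dimmer DNMT3B probe, detected on 3 arrays, had a linear change of 0.12 ± 0.19 (adjusted p = 0.657), and its course depended on time and was curved (adjusted p = 0.0129 and 0.0186). The remaining DNMT3B probe was detected on no array. The 3 DNMT3A probes were detected on 10, 1 and 0 arrays, and the brightest changed by -0.71 ± 0.30 (adjusted p = 0.0559, 95% interval -1.33 to -0.09). The level of DNMT3A was thus close to the limit of detection throughout.

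SUV39H1 and its paralog SUV39H2 are the H3 lysine 9 methyltransferases of the group. SUV39H1 had log2 values of 11.36, 11.38, 11.20 and 11.28 from 0 to 9 h and 10.97, 10.80, 10.79 and 10.71 from 12 to 21 h. It continued from 10.82 at 24 h to 10.53 at 33 h, and was 10.09, 10.38, 10.18 and 10.40 on the last 4 arrays. The linear change was -1.19 ± 0.12 (SE) log2 units (limma, adjusted p = 1.07e-07). Curvature did not pass the threshold (adjusted p = 0.656). SUV39H2 lay between 7.18 and 8.02, with its extremes at 36 and 6 h, and changed by -0.40 ± 0.18 (adjusted p = 0.073, 95% interval -0.77 to -0.03). A curved course was found for 3 of the 10 genes, DNMT1, HELLS and SUZ12, against 19.3% of all tested probes. Without the 3, 15, 18 or 45 h array, 1 of the 10 genes was curved in each case.

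**Figure D2:**
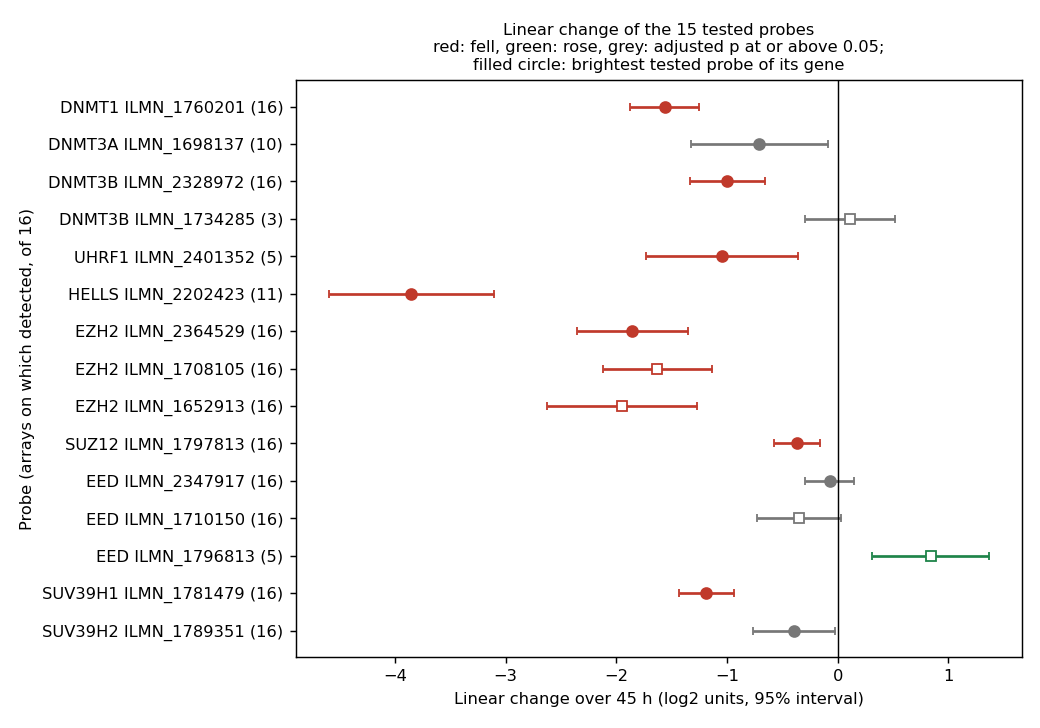
Linear change over 45 h in log2 units (horizontal axis) with its 95% interval for the 15 tested probes (vertical axis), with the number of arrays on which each was detected. HELLS at -3.85 lies farthest to the left, the 3 EZH2 probes lie together, and the EED probe detected on 5 arrays is the only one past the threshold above zero.

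When the genes changed was examined between neighbouring sets of 4 arrays (0 to 9 h, then 12 to 21 h, then 24 to 33 h, and last 36 to 45 h). These sets were noticed in earlier results of the same data, the labels name no batch, and a difference between sets cannot be told apart from the passage of time. The arrays of a set are different time points and were treated as if they were repeats. From the first to the second set 7 of the 10 genes fell and 0 rose, against 13.9% and 15.9% of all tested probes. HELLS fell by 2.63 ± 0.19 log2 units (SE, 6.18-fold, limma adjusted p = 1.95e-08), EZH2 by 1.45 ± 0.13 (2.72-fold) and DNMT1 by 1.12 ± 0.11 (2.18-fold). DNMT3B had a difference of -0.57 ± 0.13, SUV39H1 of -0.49 ± 0.10 and SUZ12 of -0.43 ± 0.08 (largest adjusted p of these, 0.00263 for DNMT3B). UHRF1 was detected on 3 of the 4 earlier arrays and 1 of the 4 later ones, so that it was at least 1.43-fold lower (adjusted p of the fit, 0.0131). For 6 of the 7, all but UHRF1, the 4 later arrays were all below the 4 earlier ones. The share of all tested probes separated in this way was not counted, so this only describes the genes. DNMT3A (-0.50, 95% interval -1.04 to 0.03), SUV39H2 (-0.17, -0.50 to 0.16) and EED (-0.05, -0.23 to 0.14) did not pass the threshold, though the second EED probe fell by 0.40 log2 units (adjusted p = 0.0485). The call of UHRF1 was lost without the 3 h array (adjusted p = 0.0547) and also without the 12 h array.

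For HELLS, EZH2, DNMT1, DNMT3B and UHRF1 the largest step between neighbouring arrays lay in the same interval, 9 to 12 h. This interval is also the boundary between the first and the second set. The share of all tested probes with their largest step there was not counted. Between 9 and 12 h the signal of HELLS dropped by 2.08 log2 units, a fall that 0.0497% of all tested probes equalled or passed. The other steps there were -1.10 log2 units for EZH2, -0.97 for DNMT1 and -0.63 for DNMT3B. Of all tested probes, 1.24%, 1.95% and 5.99% fell as far there. UHRF1 was not detected at 12 h and was at least 1.51-fold lower than at 9 h. These steps compare 1 array with 1 array and have no test.

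From the second to the third set 0 of the 10 genes passed the threshold in limma, and 0 had an unadjusted p under 0.05, against 3.36% of tested probes called as falling and 4.21% as rising. The differences lay between -0.16 for SUV39H2 and 0.12 for DNMT3B. From the third to the fourth set 3 genes fell, against 2.82% of tested probes, and 0 rose, against 0.72%. HELLS fell again to a level detected on none of the 4 arrays, at least 1.22-fold lower (adjusted p of the fit, 0.0154). DNMT3B fell by 0.49 ± 0.13 (adjusted p = 0.0382) and SUV39H1 by 0.41 ± 0.10 (adjusted p = 0.0195). These late calls were less stable, since 0 remained without the 24 h array or without the 42 h array, and 1 without the 27 h array. For DNMT3B the call held in 8 of the 16 fits that left out 1 array, for SUV39H1 in 12 and for HELLS in 14. EZH2 differed by -0.30 ± 0.13 and DNMT1 by -0.19 ± 0.11 between these sets, and neither passed the threshold (adjusted p = 0.274 and 0.485).

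**Figure D3:**
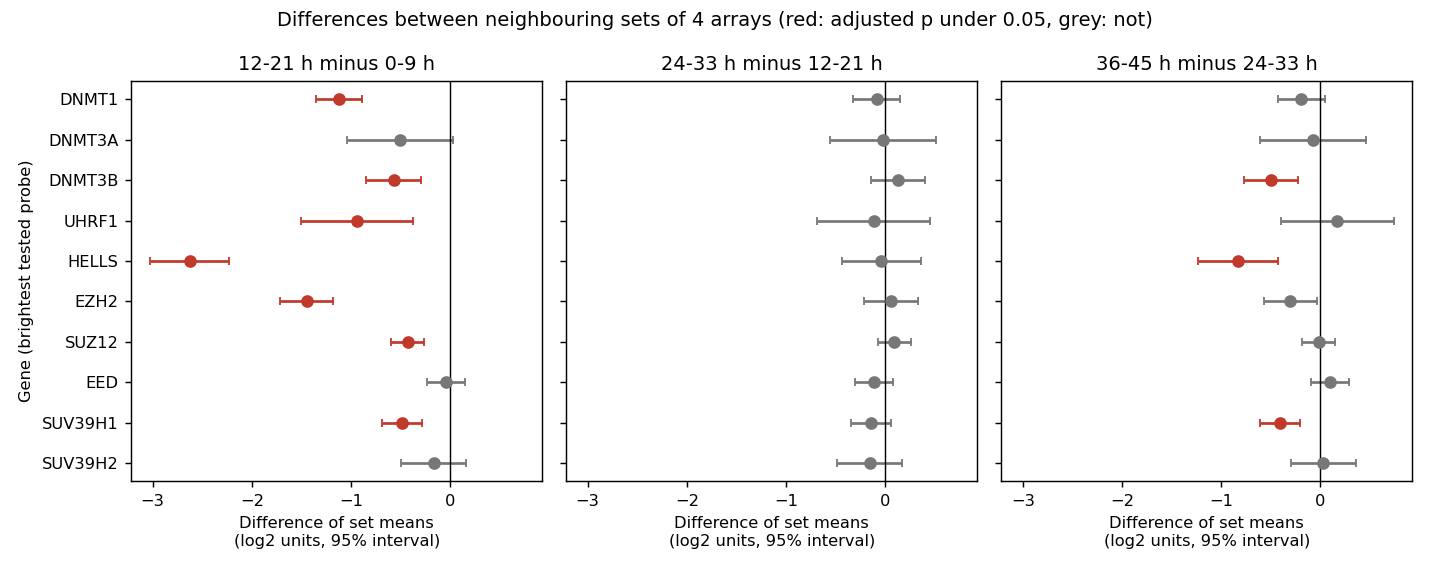
Difference in mean log2 signal between neighbouring sets of 4 arrays (horizontal axis, 95% intervals) for the brightest tested probe of each gene (vertical axis). The left panel holds 7 genes past the threshold, the middle panel 0 and the right panel 3.

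The courses were set beside lists of S phase genes and of G2 and M phase genes. The median S phase gene, relative to its mean over time, was at 1.46, 1.39, 1.25 and 1.06 log2 units from 0 to 9 h, and at -0.16 at 12 h. The median G2 and M phase gene was at 0.93 on the 9 h array and 0.61 on the next, and dropped from -0.09 at 33 h to -1.39 at 36 h. Of the S phase list 28 of 29 tested genes fell, all but E2F1 (-0.63, adjusted p = 0.129), with a median linear change of -2.19 log2 units, and of the G2 and M phase list 15 of 15 fell (median -2.58). RRM2, the small subunit of ribonucleotide reductase, changed by -4.36 ± 0.40, GINS2 (Pfs2 on the array), a part of the replicative helicase, by -3.98 ± 0.24, and MCM10, an origin factor, by -3.67 ± 0.26. AURKB, the kinase of the chromosomal passenger complex, changed by -3.51 ± 0.32, the spindle checkpoint kinase gene BUB1 by -3.32 ± 0.25 and the topoisomerase gene TOP2A by -2.86 ± 0.25.

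Over the 16 shared arrays the Pearson correlation with the S phase median was 0.99 for HELLS, 0.98 for DNMT1, 0.97 for EZH2 and 0.92 for SUV39H1. With the G2 and M phase median it was 0.73, 0.66, 0.66 and 0.88 for the same genes, and for DNMT3B the 2 values were 0.84 and 0.82. For EED they were 0.31 and -0.0012. For SUZ12, UHRF1, DNMT3A and SUV39H2 the S phase values were 0.83, 0.73, 0.59 and 0.54. Their G2 and M phase values were 0.42, 0.35, 0.44 and 0.38. These are descriptions over arrays that share a trend in time, and the differences between them were not tested.

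**Figure D4:**
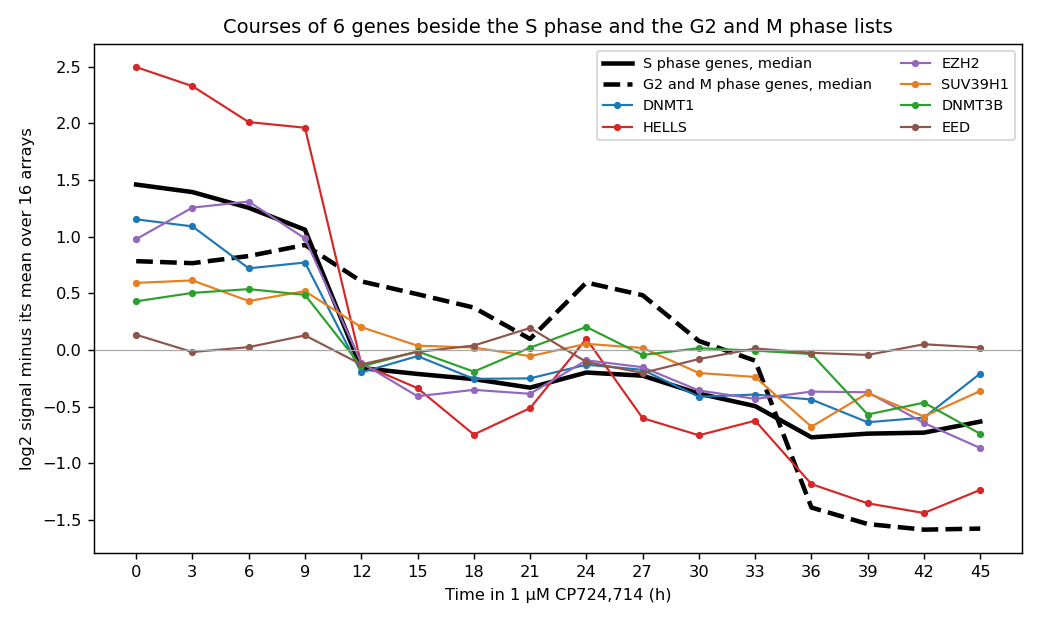
Log2 signal minus its mean over the 16 arrays (vertical axis) against hours (horizontal axis) for 6 of the genes, with the medians of the S phase list (solid black) and of the G2 and M phase list (dashed black). The S phase median steps down between 9 and 12 h together with HELLS, EZH2 and DNMT1, and the G2 and M phase median between 33 and 36 h.

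Genes of similar course were sought among 10310 others detected on all arrays. For HELLS they were CDC45 (r = 0.99), POLA2 (0.99) and MCM7 (0.99), and for DNMT1 they were POLA2 (0.99), E2F2 (0.98) and TUBB3 (0.98). CDC45 and MCM7 encode parts of the replicative helicase and POLA2 a subunit of DNA polymerase alpha. For EZH2 they were BOLA3 (0.98), RRM2 (0.98) and MCM5 (0.98). For SUV39H1 they were FLJ20364 (0.98), LMNB2 (0.97) and TTF2 (0.97), and for DNMT3B TK1 (0.94), CHTF18 (0.93) and SNRPA (0.93). For SUZ12 they were MTMR2 (0.95), HARS1 (0.93) and C20orf45 (0.93). For HELLS 350 genes had an r above 0.9, for DNMT1 302, for EZH2 270 and for SUV39H1 255, while for UHRF1, DNMT3A, EED and SUV39H2 there were 0. The highest r of these last genes were 0.86 (UHRF1 with TFDP1), 0.81 (DNMT3A with HERC2P4), 0.73 (EED with CCNL2) and 0.86 (SUV39H2 with PFN2).

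Other genes of the same pathways were called in both directions, where 21.7% of all tested probes fell and 26% rose (47.7% in all). The called shares of the DNA methylation, PRC1 and deacetylase lists were below that of all probes. Of 12 tested readers, demethylases and partners of DNA methylation, 3 fell and 2 rose (median linear change -0.10 log2 units). CDCA7, the zinc finger partner that activates HELLS, changed by -3.46 ± 0.23 (SE) log2 units over 45 h (limma, adjusted p = 7.76e-10), MBD3, a subunit of the NuRD complex, by -1.09 ± 0.18, and CDCA7L by -0.50 ± 0.16. ZBTB4 and ZBTB33, which encode zinc finger proteins that bind methylated DNA, rose by 0.44 ± 0.11 and 0.44 ± 0.08. UHRF2, the paralog of UHRF1, changed by 0.00 ± 0.14 (adjusted p = 0.988).

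Of 9 tested PRC2 partners and lysine 27 demethylases, 3 fell and 5 rose (median linear change 0.41). PHF19, which recruits PRC2 to chromatin, changed by -2.42 ± 0.23 (adjusted p = 4.54e-08), and the histone binding subunits RBBP4 and RBBP7 by -0.85 ± 0.19 and -0.50 ± 0.11. RBBP4 had log2 values of 8.93 at 0 h and 8.97 at 45 h, so its fall is that of the fitted trend and not of the end points. EZH1, the paralog of EZH2, rose by 0.74 ± 0.22 (limma, adjusted p = 0.00978), against the fall of EZH2. The EZH1 probe was dim, with a mean log2 of 6.52 and detection on 15 arrays. At 0 h its log2 value was 6.06, where the lowest detected value of the array was 6.05. The PRC2 cofactors AEBP2 and PHF1 rose by 0.56 ± 0.15 and 0.44 ± 0.14.

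Of 16 tested PRC1 genes 2 fell and 4 rose, with CBX7 rising by 1.19 ± 0.14 (adjusted p = 1.21e-06), PCGF5 by 0.75 ± 0.14 and RING1 by 0.59 ± 0.08. CBX2, another chromodomain subunit of PRC1, changed by -0.65 ± 0.11 and SCMH1 by -0.48 ± 0.12. Of 16 genes of lysine 9 and H4 lysine 20 methylation, HP1 proteins and lysine 9 demethylases, 7 fell and 3 rose. CBX5 and CBX1, which encode the HP1 proteins that bind the mark made by SUV39H1, changed by -1.68 ± 0.10 (adjusted p = 2.3e-10) and -0.97 ± 0.14, and their corepressor TRIM28 by -0.84 ± 0.15. The lysine 9 methyltransferase genes SETDB1 and SETDB2 rose by 0.38 ± 0.11 and 0.44 ± 0.14, and the demethylase KDM3A (JMJD1A on the array) by 0.65 ± 0.16. Of 13 histone deacetylases and sirtuins 0 fell and 2 rose, HDAC11 by 1.05 ± 0.19 and SIRT1 by 0.44 ± 0.11, and 11 did not pass the threshold.

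**Figure D5:**
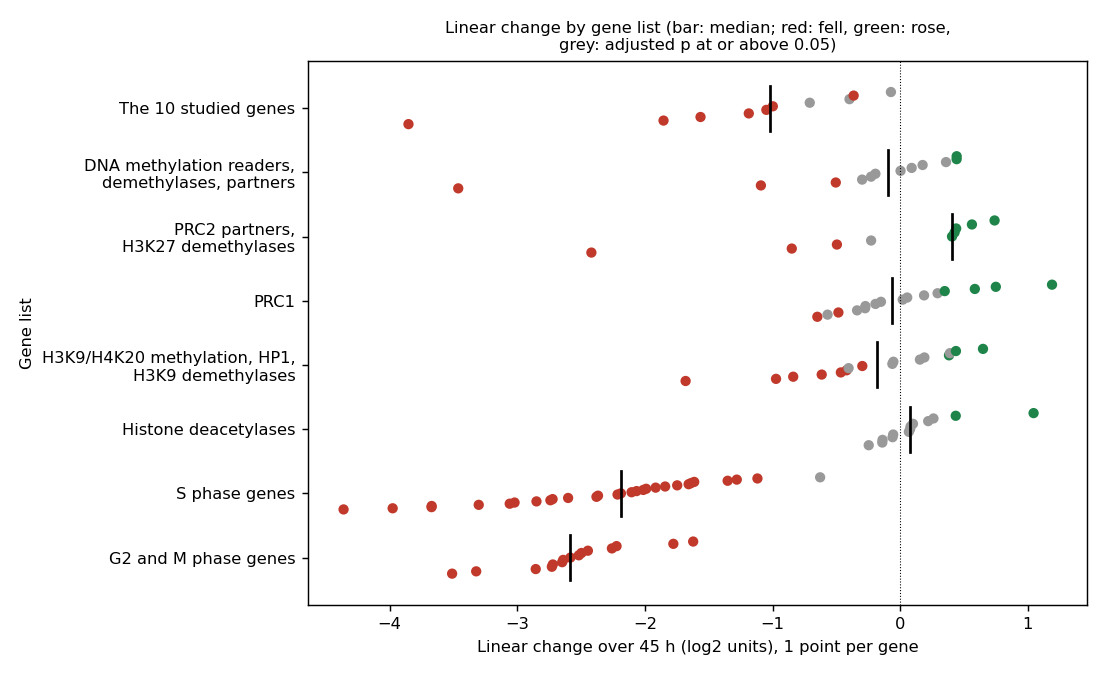
Linear change over 45 h in log2 units (horizontal axis), 1 point per gene, for the 10 studied genes and 7 other lists (vertical axis), with the median as a black bar. The S phase and the G2 and M phase lists lie wholly below zero, while the PRC2 partner, PRC1 and lysine 9 lists hold genes on both sides.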

How the data were processed

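The deposited table holds, per probe and array, a linear signal intensity that the authors neither background-subtracted nor normalized, and a detection p-value. The lowest deposited intensity was 110.7. The scanner software and genome build are not given in the sources used here. Samples were grouped by the time in their labels. Signals were corrected with the normexp model of limma 3.58.1 (neqc, R 4.3.3), with controls inferred from detection p-values, then quantile normalized and put on the log2 scale with an offset of 16. The test covered the 16110 probes detected (p under 0.05) on 3 or more arrays. A cubic in hours was fitted (lmFit, then eBayes with trend). The cubic, its linear term and its curvature were tested, and set means were compared in a one-way fit. All tests were two-sided, with Benjamini-Hochberg adjustment over all probes tested. The error comes from deviations around the fit. The fits were tested on simulated data. Its noise was independent for each probe and array, so it cannot show how shared deviations of neighbouring arrays act on the fits. Where a gene had several tested probes, that of highest mean stood for it. In lower bounds, an undetected signal was replaced by the lowest log2 value among the detected probes of the array. The bounds were computed only on the background-corrected scale with the offset of 16.

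Of the array symbols 91% matched RefSeq by symbol or a unique synonym. The genes and lists were chosen with earlier results of these data known. Named were all probes of the 10 genes, up to 3 genes past the threshold per list and direction, detected on at least 8 arrays, and the 3 genes with the highest Pearson r per studied gene. Alternatives concerned background, offset, normalization, filter, probes, array weights, time course, sets and left-out arrays. Python 3.11.15 and matplotlib 3.10.9 drew the figures.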

Additional observations from a re-analysis of the deposited data

How the results depend on the processing

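Under array weights, cyclic loess, median scaling, a larger offset (50), no background correction, no filter, or a filter for detection on all 16 arrays, the counts of the 10 genes stayed within 1.5 times those given. The dim genes' linear changes were smaller without background correction, at -1.90 for HELLS, -0.61 for DNMT3B, -0.36 for UHRF1, -0.25 for DNMT3A and -0.20 for SUV39H2. SUV39H2 passed the threshold under cyclic loess (-0.44, adjusted p = 0.0494) and DNMT3A under array weights (-0.82, adjusted p = 0.0295). Counting every probe gave 11 time-dependent and 5 curved probes of 15. With each array left out in turn, 6 to 7 genes were time-dependent, 6 to 9 had a linear trend, 1 to 4 were curved, 6 to 7 fell from the first to the second set, 0 from the second to the third and 0 to 3 from the third to the fourth.

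With the 12 h set as a factor, where only differences within 9 h enter, 0 genes were time-dependent and 0 had a linear trend in limma, against 0.9% of all tested probes with a linear trend. At an unadjusted p under 0.05, 2 of them had a linear trend, HELLS (-2.27, adjusted p = 0.167) and EZH2 (-1.38, adjusted p = 0.218), and 9 of 10 kept their sign. EED turned to 0.66 there and to 0.23 with a step between 21 and 24 h, neither past the threshold. The cause was not tested. With that step UHRF1 was not past the threshold (-1.39, adjusted p = 0.19). The 0 h and 45 h arrays were also left out together, a setting added after seeing the data. DNMT3B then did not pass the threshold in the last contrast (limma, adjusted p = 0.12).

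Without background correction the difference between probes was -0.65 for DNMT3B, against -1.11 with it. For the brighter EED probes against the dimmest it was -0.35 and -0.55, against -0.91 and -1.19. For the brighter EZH2 probes against the dimmest it turned from 0.10 and 0.32 to -0.28 and -3.5e-05. With an offset of 50 the first EED difference was -0.61. No paired analysis was possible because there was 1 array per time point. Signals near the background limit UHRF1, DNMT3A, the late HELLS values and the EZH1 value at 0 h.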
